A study of Mus musculus with 6 samples.

Results

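The genes described here were 32 splicing regulators, 12 SR-type proteins and 20 heterogeneous nuclear ribonucleoproteins (hnRNPs), out of 27179 genes in the deposited table. They were chosen by gene name: Srsf1 to Srsf7, Srsf9 to Srsf11, the transformer-2 proteins Tra2a and Tra2b, and 20 genes with hnRNP symbols. Bulk RNA sequencing of mouse embryonic fibroblasts was used to compare cells given guide RNAs against Zmat3 with cells given negative control guides, 3 libraries in each group. All 6 libraries shared the genotype Cas9+;E1A;HrasG12V, so the controls also expressed the Cas9 nuclease, the adenoviral oncogene E1A and an activated Ras. The guides came by lentivirus, and RNA was taken 10 days after selection. Each library carried its own guide. The control libraries 1, 2 and 3 carried the guides labelled EV, SPA and ACOCA, and the knockout libraries 1, 2 and 3 carried the Zmat3 guides labelled 52.6, 51.5 and 54.8. A guide, its transduced population and its library can therefore not be told apart, and the labels do not say whether the libraries of a group came from separate starting cultures, so the p-values below measure the spread between these libraries.

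SR proteins bind exonic sequences through RNA recognition motifs and recruit the splicing machinery through domains rich in arginine and serine, most often favouring inclusion of the exon. hnRNPs coat nascent transcripts, frequently favour exon skipping, and also act in mRNA export, stability and translation. Many genes of both classes hold a poison exon, whose inclusion sends the transcript to nonsense-mediated decay, and through it several of these proteins limit their own mRNA. Zmat3, a zinc-finger RNA-binding protein and a transcriptional target of p53, is itself a regulator of splicing.

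To show what lies at the start of genes with larger and smaller fold changes, 5 promoters are given from RefSeq on GRCm38.p6. None of these genes passed the false discovery rate of 0.05 with all libraries. Each promoter is 300 bases on the gene's strand, reaching from upstream of the start just into the transcript. Srsf1 and Srsf2 had the lowest fold changes of the SR genes and Srsf5 differed least in that class. Hnrnpa0 had the smallest p-value among the hnRNPs and Hnrnpc differed little. Capitals mark the CCAAT box, which reads ATTGG on the other strand. They also mark the ETS-type letters CCGGAAGT, whose reverse complement is ACTTCCGG, the letters TATAAA of the TATA box, and the E2F-type letters TTTCCCGC or their variant TTTGGCGC. The marked runs do not overlap. The regions are chr11:88047123-88047422 on the plus strand for Srsf1, chr11:116853045-116853344 on the minus strand for Srsf2, chr12:80945249-80945548 on the plus strand for Srsf5, chr13:58128507-58128806 on the minus strand for Hnrnpa0 and chr14:52103972-52104271 on the minus strand for Hnrnpc.
Srsf1: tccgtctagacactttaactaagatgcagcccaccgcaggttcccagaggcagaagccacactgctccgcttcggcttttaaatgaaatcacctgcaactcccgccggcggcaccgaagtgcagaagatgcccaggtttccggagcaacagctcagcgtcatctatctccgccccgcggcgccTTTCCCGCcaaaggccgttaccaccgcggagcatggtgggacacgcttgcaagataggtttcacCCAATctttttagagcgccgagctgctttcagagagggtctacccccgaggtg
Srsf2: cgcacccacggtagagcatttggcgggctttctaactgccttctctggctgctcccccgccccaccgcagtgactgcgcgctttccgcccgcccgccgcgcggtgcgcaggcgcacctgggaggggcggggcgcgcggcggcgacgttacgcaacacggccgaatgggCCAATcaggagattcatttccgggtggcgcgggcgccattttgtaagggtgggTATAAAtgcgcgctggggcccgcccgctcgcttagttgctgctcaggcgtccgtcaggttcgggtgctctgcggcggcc
Srsf5: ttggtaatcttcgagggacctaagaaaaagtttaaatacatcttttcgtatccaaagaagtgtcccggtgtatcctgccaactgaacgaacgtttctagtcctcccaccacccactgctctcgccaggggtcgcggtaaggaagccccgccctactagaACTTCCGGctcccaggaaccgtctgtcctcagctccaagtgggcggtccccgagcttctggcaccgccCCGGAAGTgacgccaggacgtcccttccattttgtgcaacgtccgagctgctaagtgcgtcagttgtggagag
Hnrnpa0: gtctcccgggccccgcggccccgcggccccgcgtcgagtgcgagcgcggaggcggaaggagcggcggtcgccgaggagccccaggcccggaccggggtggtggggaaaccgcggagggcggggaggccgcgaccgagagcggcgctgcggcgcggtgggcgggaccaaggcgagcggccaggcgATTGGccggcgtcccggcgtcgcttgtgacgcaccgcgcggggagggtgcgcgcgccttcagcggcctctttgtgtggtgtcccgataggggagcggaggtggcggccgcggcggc
Hnrnpc: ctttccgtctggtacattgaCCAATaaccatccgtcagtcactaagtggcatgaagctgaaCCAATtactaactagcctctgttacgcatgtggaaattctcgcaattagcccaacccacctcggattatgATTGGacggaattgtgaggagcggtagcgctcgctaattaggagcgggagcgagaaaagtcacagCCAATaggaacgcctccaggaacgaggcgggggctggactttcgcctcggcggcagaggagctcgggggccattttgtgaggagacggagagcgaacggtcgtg

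Promoters were listed for 30 of the 32 genes, 15 promoters of the SR class and 27 of the hnRNPs, with Hnrnpll and Hnrnpul2 missing from the table. Searched on both strands, CCAAT lay in 33.3% of the SR promoters and in 63.0% of the hnRNP promoters, against 37.4% of all 32851 promoters. Some promoters of 1 gene overlap and are counted separately. By gene, CCAAT lay in 5 of 12 SR genes and 13 of 18 hnRNP genes, against 11096 of all 27025 genes with a listed promoter. Of the printed genes, Hnrnpa0, Hnrnpc, Srsf1 and Srsf2 held it and Srsf5 did not. Of the other genes among the 3 lowest fold changes of each class, Hnrnpab held it and Srsf6 and Hnrnpm did not. The E2F-type letters lay in 20% of SR promoters, those of Srsf1, Srsf10 and Tra2b, and in 7.41% of hnRNP promoters, those of Hnrnpr and Hnrnpul1, against 1.57% of all. The ETS-type letters lay in 26.7% and 7.41%, against 3.89%, and by gene in 3 of 12 and 2 of 18, against 1164 of 27025. The E-box CACGTG was in no SR promoter and in 18.5% of the hnRNP promoters, against 7.15%. TATAAA lay in 13.3% and 7.41%, against 13.6%, and the cyclic AMP response letters TGACGTCA lay in 6.67% and 0%, against 1.79%. The median GC content was 68.3% for SR promoters and 66.3% for hnRNP promoters, against 52.7% for all, and several genes contributed more than 1 promoter. These matches are descriptions of letters in a window and carry no test.

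The libraries held 53253055 to 90256118 reads, and 1 read was worth 0.732 to 1.21 of the normalised read counts (reads divided by the authors' size factor) used throughout. Control library 3 stood apart from the other 5, with a mean correlation of 0.941 with them over all tested genes against 0.969 to 0.975 for each other library. Zmat3, the targeted gene, stood at 17169, 15869 and 17434 normalised counts in control libraries 1 to 3 and at 11421, 4912 and 4960 in knockout libraries 1 to 3. On the log2 scale it was lower by a fold change of -1.36 (SE 0.33), and its adjusted p was 0.371 by limma and 0.0444 by DESeq2, a call that was lost without control library 3 (DESeq2 adjusted p 0.210). Knockout library 1 thus held 67.9% of the control mean of Zmat3 mRNA, and an mRNA count does not measure the protein. Among 12 fibroblast markers Vim and Fn1 were abundant in every library, whereas Lum was at 0 in all 6 and Col1a2 and Thy1 reached at most 14.2 and 5.42 normalised counts. The 12 fibroblast markers summed to 218624 to 243857 in control and 232512 to 261420 in knockout libraries, mostly from Vim and Fn1. The fibroblast markers did not move together in control library 3. Col3a1 stood there at 198 normalised counts against 2407 to 3546 in the other 5 libraries. Pdgfra stood at 425 against 1525 to 2384 and Pdgfrb at 1407 against 3578 to 4650. Col1a1, Dcn and Fn1 were also lowest in control library 3. Vim, S100a4, Col1a2 and Fap were instead highest in it, with S100a4 at 373 against 133 to 349 in the other 5. The 8 epithelial markers summed to 12474 to 30093 in control and 20512 to 25561 in knockout libraries, mostly from Epcam except in control library 3, where Krt18 stood at 8675 and Epcam at 3574. Krt18 ranged from 91.3 to 4463 in the other 5 libraries, and Krt5 was at 0 in all 6. The 9 leukocyte markers summed to 840 to 6061 and 7177 to 9248, nearly all of it Cd68, while Tyrobp was at 0 and Ptprc reached at most 8.26. The 5 endothelial markers summed to 194 to 648 and 482 to 752, mostly from Kdr. The 7 neural markers summed to 21796 to 24500 and 19705 to 22624, nearly all of it Nes and Map2, while Rbfox3 and Dcx reached at most 3.54 and 4.72. The part of these markers in the differences below was not tested. In such bulk samples fewer cells of a type and less RNA per cell cannot be told apart.

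All 32 genes had a lower mean log2 level in the knockout libraries than in the controls, but none passed the false discovery rate of 0.05. A negative fold change was found for 12 of 12 SR genes and 20 of 20 hnRNP genes, against 48.4% of the 14777 genes tested, and all 32 passed the filter on low values. The median log2 fold change was -0.52 over the SR genes and -0.36 over the hnRNPs, against 0.01 over all genes tested. limma called none of the 32 genes and 0% of all genes, and 1948 genes had an unadjusted p under 0.05. Their adjusted limma p-values ran from 0.371 to 0.910 for the SR genes and from 0.371 to 0.934 for the hnRNPs. edgeR on the recovered reads also called 0% of all genes, with 1943 at an unadjusted p under 0.05, and none of the 32. DESeq2 called 129 genes, 0.891% of those with an adjusted p, and again none of the 32. Its smallest adjusted p-values were 0.129 for Srsf2 in the SR class and 0.0626 for Hnrnpa0 among the hnRNPs.

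At an unadjusted limma p under 0.05, 11 of the 32 genes were lower in the knockout, against 7.16% of all genes. These were Srsf2 and Srsf4 of the SR class and Hnrnpa0, Hnrnpa2b1, Hnrnpab, Hnrnpd, Hnrnpf, Hnrnpll, Hnrnpm, Hnrnpr and Hnrnpu. By edgeR 14 of the 32 were under that p and lower, against 8.38% of all genes. By DESeq2 17 of the 32 were, against 6.54% of 22113 genes, a larger set not filtered for low values. In 15 of the 32 genes all 3 knockout libraries lay below all 3 control libraries, against 14.4% of all genes. This separation was seen in 3 of 12 SR genes (Srsf2, Srsf4 and Srsf11) and in 12 of 20 hnRNP genes (Hnrnpa0, Hnrnpa1, Hnrnpab, Hnrnpd, Hnrnpf, Hnrnpl, Hnrnpll, Hnrnpm, Hnrnpr, Hnrnpu, Hnrnpul1 and Hnrnpul2). In none of the 32 did all knockout libraries lie above the controls, against 13.2% of all genes. With 3 libraries against 3, an exact permutation test of 1 gene cannot give a p below 0.1.

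**Figure D1:**
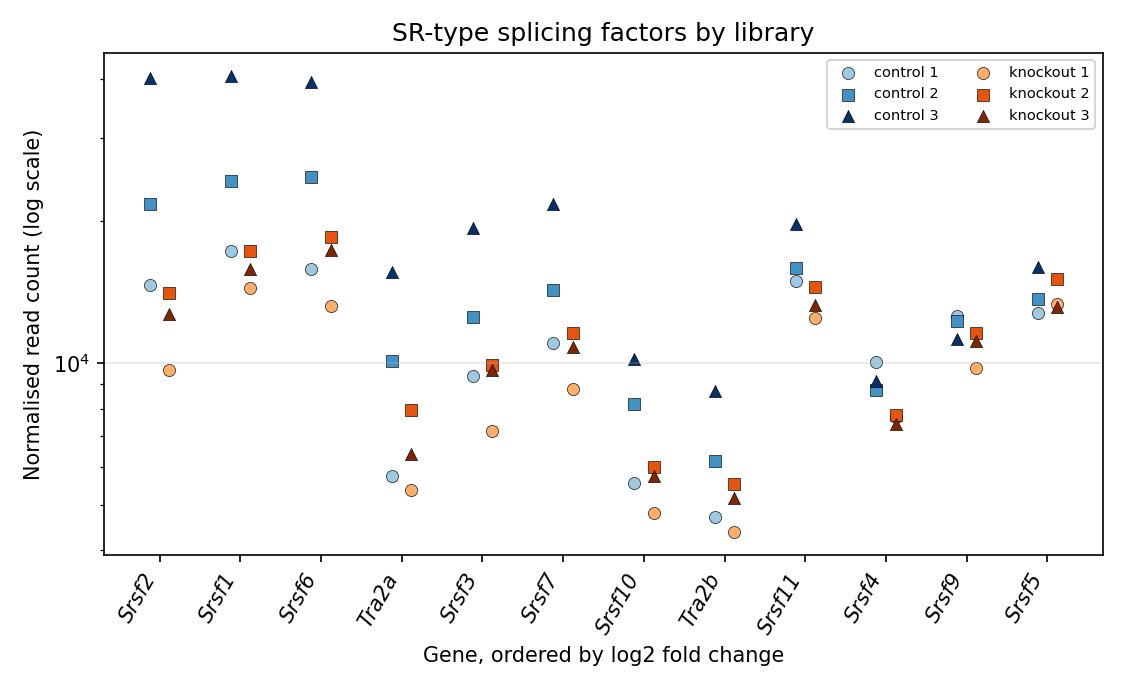
Normalised read count of the 12 SR-type genes in each library, on a log scale, with genes ordered by log2 fold change; blue points are control and orange points knockout libraries, and the shape gives the library number. Control library 3 is highest for 10 of the 12 genes, while Srsf5 and Srsf9 at the right show little difference between the groups.

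Srsf2 (SC35), which binds exonic enhancers and is a component of nuclear speckles, had the lowest fold change of the 32 genes. Srsf2 stood at 14606, 21724 and 40160 normalised counts in control libraries 1 to 3 and at 9639, 14042 and 12712 in knockout libraries 1 to 3. Every knockout library was below every control library, and control library 3 stood far above the other controls. The log2 fold change was -0.96 (SE 0.36, adjusted p 0.371 by limma), and -0.57 without control library 3. Srsf2 lies at chr11:116849901-116853094 on the minus strand, and 25.3% of its exonic bases also belong to exons of Mettl23 or Mfsd11 on the other strand.

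Srsf1, the founding SR protein and a factor in both constitutive and alternative splicing, had the most reads of its class. Its normalised counts were 17266, 24355 and 40685 in the control libraries and 14446, 17288 and 15799 in the knockout libraries. Knockout library 2 was just above control library 1, so the groups overlapped. Its log2 fold change was -0.71 (SE 0.30, adjusted p 0.371 by limma), and -0.38 without control library 3. Srsf6, which like Srsf1 promotes exon inclusion, followed with 15790, 24764 and 39437 normalised counts in controls and 13191, 18512 and 17338.5 in knockouts. Its groups overlapped too, since knockout libraries 2 and 3 exceeded control library 1. For Srsf6 the log2 fold change was -0.62 (SE 0.33, adjusted p 0.383 by limma), and -0.29 without control library 3.

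Srsf5 and Srsf9 were the SR genes that differed least. Srsf5, an SR protein known to be induced by growth signals, stood at 12780, 13687 and 15970 normalised counts in controls and at 13327, 15055 and 13146 in knockouts. The groups overlapped throughout, and the log2 fold change of -0.03 (SE 0.13, adjusted p 0.910 by limma) became 0.06 without control library 3. Srsf9, a short SR protein, stood at 12579, 12280 and 11259 in controls and at 9772, 11584 and 11109 in knockouts. Here control library 3 was the lowest control, unlike in the other SR genes named so far. For Srsf9 the log2 fold change was -0.16 (SE 0.11, adjusted p 0.461 by limma), and -0.20 without control library 3.

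Among the other canonical SR genes, Srsf3 and Srsf7, a pair that links splicing to mRNA export, showed fold changes of -0.58 and -0.54 on the log2 scale. Srsf3 ranged from 9382 to 19320 normalised counts in controls and from 7154 to 9922 in knockouts, and Srsf7 from 11026 to 21718 and from 8799 to 11601. Both overlapped, and both had control library 3 as the highest library. Srsf4 had controls between 8774 and 10057 and knockouts between 7425 and 7743. Its groups did not overlap, its controls were close together, and its log2 fold change of -0.29 (SE 0.10, adjusted p 0.371 by limma) was -0.30 without control library 3.

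The other SR-type factors had a median log2 fold change of -0.42, and -0.22 without control library 3. Srsf10, which represses splicing when dephosphorylated, ranged from 5571 to 10212 normalised counts in controls and from 4810 to 6009 in knockouts, with overlap. Srsf11 ranged from 14891 to 19707 and from 12439 to 14496, without overlap. Tra2a and Tra2b, vertebrate homologues of the fly sex-determination factor transformer-2, bind purine-rich enhancers. Tra2a ranged from 5759 to 15621 in controls and from 5382 to 7943 in knockouts. Tra2b, with the fewest reads of the SR class, stood at 4714, 6185 and 8726 in controls and at 4367, 5541 and 5165 in knockouts, and its log2 fold change was -0.34 (SE 0.23, adjusted p 0.443 by limma). Both transformer-2 genes overlapped between groups.

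**Figure D2:**
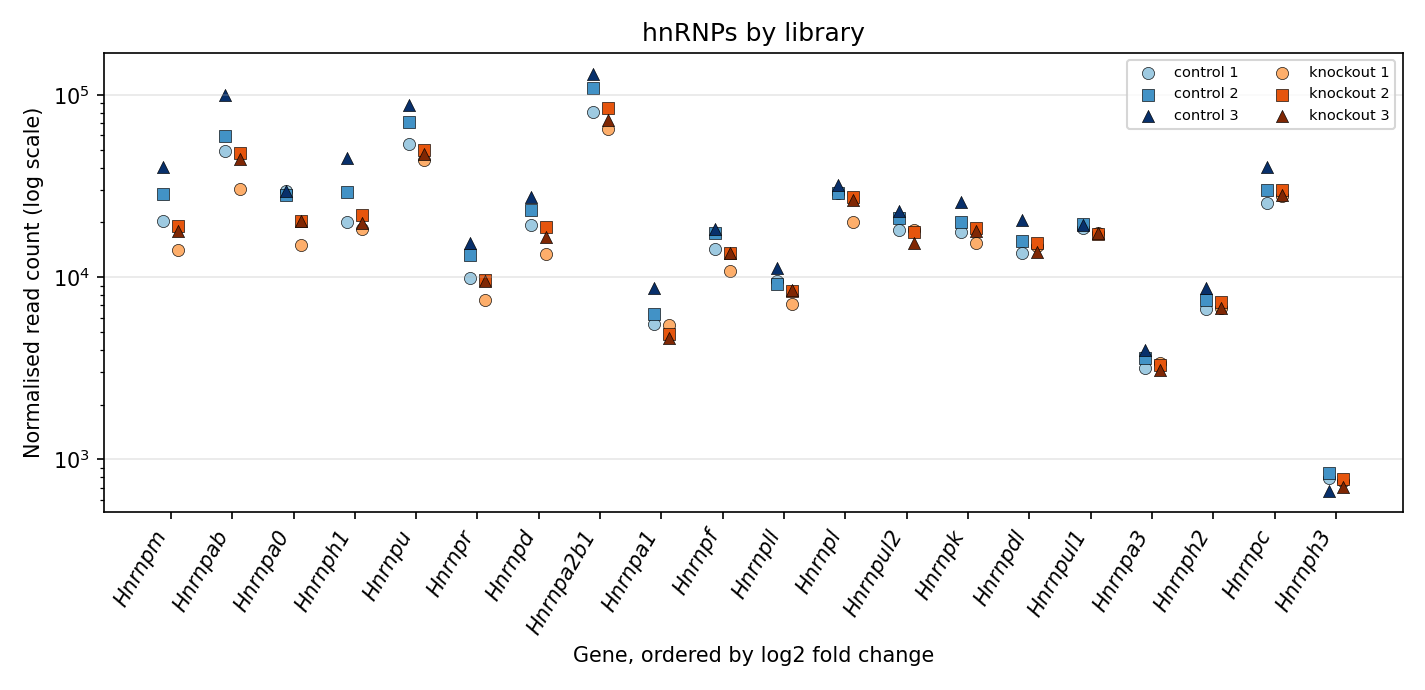
Normalised read count of the 20 hnRNP genes in each library, on a log scale, with genes ordered by log2 fold change; blue points are control and orange points knockout libraries, and the shape gives the library number. Hnrnpa0 shows 3 control libraries close together above 3 lower knockout libraries, and Hnrnph3 at the right lies near 669 to 838 in all 6.

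The hnRNPs of the A/B and D families, which share paired RNA recognition motifs, had a median log2 fold change of -0.51 over 7 genes. In 4 of them all knockout libraries lay below all controls, against 14.4% of all genes. Hnrnpa0, which binds AU-rich elements in mRNA, stood at 29603, 28268 and 29915 normalised counts in controls and at 14943, 20476 and 20365 in knockouts. The 3 controls were nearly level and all 3 knockout libraries were lower, with library 1 the lowest. The log2 fold change of -0.67 (SE 0.15, adjusted p 0.371 by limma) was -0.65 without control library 3. Without that library DESeq2 called it, with an adjusted p of 0.00516, in a fit chosen after seeing the data. That fit called as lower 2.87% of the genes to which it gave an adjusted p. Without that library the adjusted p of Hnrnpa0 was 0.235 by limma and 0.240 by edgeR. The DESeq2 call was the only one among the 32 genes by limma, edgeR or DESeq2 in the fits with and without that library. Hnrnpa0 is a single-exon gene at chr13:58125879-58128556 on the minus strand, and no 50-base word of its transcript occurs in another gene.

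Hnrnpab, a relative that binds single-stranded nucleic acids, stood at 49511, 59957 and 99558 in controls and at 30412, 48262 and 44639 in knockouts. The groups did not overlap, but knockout library 2 lay close to control library 1. For Hnrnpab the log2 fold change was -0.72 (SE 0.30, adjusted p 0.371 by limma), and -0.43 without control library 3. Hnrnpa2b1, which binds the UAG core motif and has the most reads of all 32 genes, stood at 80707, 108859 and 130678 in controls and at 65226, 84572 and 72635 in knockouts. Knockout library 2 exceeded control library 1, and the log2 fold change was -0.51 (SE 0.20, adjusted p 0.371 by limma). Hnrnpa1, a repressor of exon inclusion, ranged from 5551 to 8768 in controls and from 4664 to 5465 in knockouts, without overlap.

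Hnrnpd (AUF1), which regulates the decay of AU-rich mRNAs, ranged from 19318 to 27710 in controls and from 13459 to 18926 in knockouts, also without overlap. Its relative Hnrnpdl stood at 13616, 15763 and 20709 in controls and at 14881, 15494 and 13818 in knockouts, all 3 within the control range. The log2 fold change of Hnrnpdl, -0.16 (SE 0.17, adjusted p 0.595 by limma), became 0.01 without control library 3. Hnrnpa3 ranged from 3157 to 3988 in controls and from 3096 to 3395 in knockouts, with overlap.

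Hnrnpm, whose protein is found on pre-mRNA and favours exon skipping at GU-rich motifs, had the lowest fold change among the hnRNPs. It stood at 20301, 28733 and 40102 in controls and at 14023, 19172 and 17970 in knockouts. All knockout libraries lay below all controls, and the log2 fold change was -0.76 (SE 0.26, adjusted p 0.371 by limma), and -0.51 without control library 3. Hnrnpc, which binds uridine tracts, stood at 25578, 30018 and 40169 in controls and at 28044, 30283 and 28151 in knockouts. Every knockout library exceeded control library 1, and the log2 fold change of -0.12 (SE 0.18, adjusted p 0.699 by limma) became 0.06 without control library 3. Hnrnpk, which binds cytosine-rich RNA through KH domains, ranged from 17613 to 25715 in controls and from 15437 to 18637 in knockouts, with overlap. Hnrnpr ranged from 9912 to 15431 and from 7488 to 9679, without overlap.

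The F/H family binds runs of guanines, and its 4 genes had a median log2 fold change of -0.26. Hnrnph1 ranged from 19985 to 45215 normalised counts in controls and from 18471 to 22054 in knockouts, with overlap. Hnrnpf ranged from 14232 to 18468 and from 10878 to 13605, without overlap. Hnrnph2 was between 6683 and 8708 in controls and between 6753 and 7333 in knockouts, again with overlap. Hnrnph3, with the fewest reads of the class, stood at 787, 838 and 669 in controls and at 758, 783 and 702 in knockouts. Its log2 fold change was -0.03 (SE 0.16, adjusted p 0.934 by limma), and the control library 3 value was the lowest of all 6.

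The L family had a median log2 fold change of -0.31 over 2 genes and the U family -0.28 over 3. Hnrnpl, which binds CA repeats, ranged from 28907 to 32053 in controls and from 20061 to 27410 in knockouts, and its paralogue Hnrnpll from 9228 to 11302 and from 7132 to 8496. Hnrnpu (SAF-A), a chromatin-associated scaffold, ranged from 53559 to 88545 and from 43858 to 50185, with a log2 fold change of -0.57. Hnrnpul1 ranged from 18671 to 19563 and from 17231 to 17519, and Hnrnpul2 from 18276 to 23190 and from 15474 to 18140. In all 5 genes the knockout libraries lay below the controls without overlap, against 14.4% of all genes. Hnrnpul1 had the smallest standard error of the 32, 0.09 beside a log2 fold change of -0.14.

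The size of the difference depended on which controls were included. Without control library 1 the median log2 fold change was -0.75 over the SR genes and -0.45 over the hnRNPs, further from 0 than with all 6 libraries. Leaving out control library 3 moved both medians the other way. That library was the highest of all 6 libraries for 10 of 12 SR genes and 18 of 20 hnRNP genes, against 36.8% of all genes. It held at least 2 times the value of control library 1 for Srsf1, Srsf2, Srsf3, Srsf6 and Tra2a and for Hnrnpab and Hnrnph1, against 7.87% of all genes. Control library 1 was the lowest control for 26 of the 32 genes, against 36.8% of all genes. Set against the 3 controls in turn, the median log2 difference of the knockout mean from control libraries 1, 2 and 3 was -0.09, -0.49 and -0.98 over the SR genes and -0.14, -0.32 and -0.56 over the hnRNPs.

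Without control library 3 the median log2 fold change was -0.28 over the SR genes and -0.25 over the hnRNPs, and 29 of the 32 were negative, against 49.1% of all genes. The 3 that turned positive were Srsf5, Hnrnpc and Hnrnpdl. All knockout libraries then lay below both remaining controls in 17 genes, against 17.4% of all genes. These were the 15 named above with Srsf9 and Hnrnph3 added. limma and edgeR called 0.0334% of the 14960 genes tested without that library and none of the 32. DESeq2 called as lower 2.87% of the 12954 genes to which it gave an adjusted p, with Hnrnpa0 among them. Leaving out control library 3 brought the log2 fold change nearer to 0 by more than 1.5 times, with the same sign, in 9 of 12 SR genes and in 6 of 20 hnRNP genes. The 9 were Srsf1, Srsf2, Srsf3, Srsf6, Srsf7, Srsf10, Srsf11, Tra2a and Tra2b, and the 6 were Hnrnpa1, Hnrnpa3, Hnrnpab, Hnrnph1, Hnrnph2 and Hnrnpk. In Srsf4, Srsf9 and Hnrnph3 the fold change was larger without that library.

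**Figure D3:**
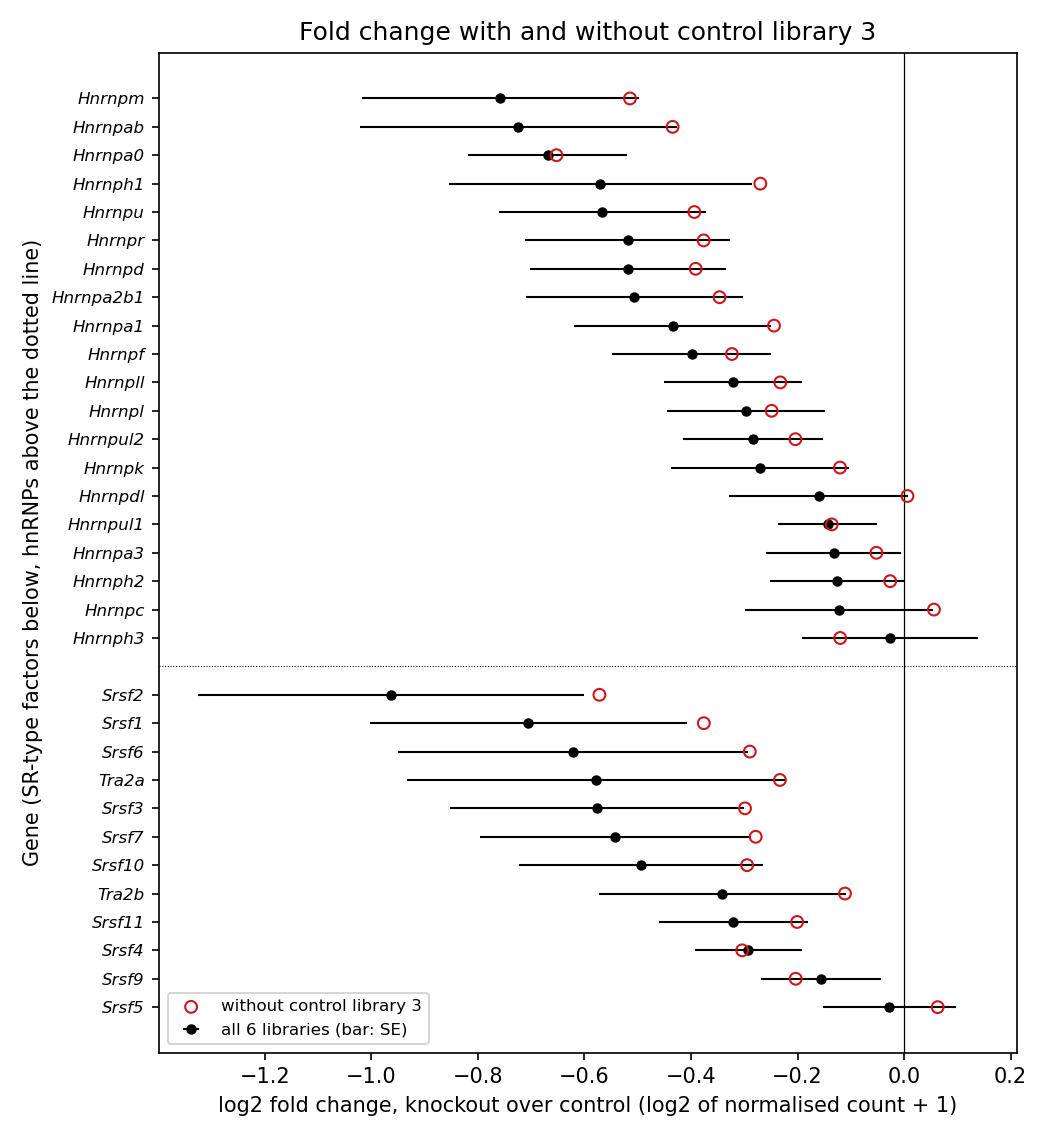
Log2 fold change of each of the 32 genes, knockout over control, with SR-type genes below and hnRNPs above the dotted line; black points with bars are the 6-library estimate and its SE, and open red circles the estimate without control library 3. The red circles of Srsf1, Srsf2 and Srsf6 lie nearer to 0 than the black points, while those of Hnrnpa0 and Srsf4 almost coincide.

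Among the knockout libraries, library 1 held the lowest value for 24 of the 32 genes, against 43.4% of all genes, and library 2 the highest for 27, against 33.0%. All 12 SR genes were highest in knockout library 2 within that group. Knockout library 1 was also the lowest of all 6 libraries for 10 SR genes and 12 hnRNP genes, against 24.3% of all genes. It is the library with the highest Zmat3 level of the 3. Among the listed nuclear RNAs it had Malat1 at 16704 and Xist at 73208 normalised counts, against at most 8140 and 35768 in the other 5. Gas5 and Meg3 were also highest in it. Neat1 was instead highest in knockout library 3, and Kcnq1ot1 and Snhg1 in control library 3. The part of nuclear RNA in the low values of knockout library 1 was not tested. Leaving it out gave medians of -0.41 for the SR genes and -0.31 for the hnRNPs.

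Setting each class's mean log2 deviation from the control mean side by side, the SR genes stood at -0.39, -0.03 and 0.42 in control libraries 1 to 3 and at -0.65, -0.32 and -0.43 in knockout libraries 1 to 3. The hnRNP genes stood at -0.24, -0.01 and 0.25 and at -0.50, -0.27 and -0.36. Both classes put control library 3 highest and knockout library 1 lowest, and in the SR genes control library 1 lay below knockout library 2. The SR mean minus the hnRNP mean was -0.15, -0.02 and 0.17 in controls and -0.15, -0.05 and -0.07 in knockouts, so that the groups overlapped in this difference. As a share of all normalised counts, SR genes made up 0.274% ± 0.0721 (SD, n = 3) in controls and 0.198% ± 0.0209 (SD, n = 3) in knockouts, and hnRNP genes 0.826% ± 0.135 and 0.627% ± 0.0590. The within-group standard deviation of a gene's log2 level had a median of 0.359 in the SR class, 0.223 in the hnRNPs and 0.264 over all genes.

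**Figure D4:**
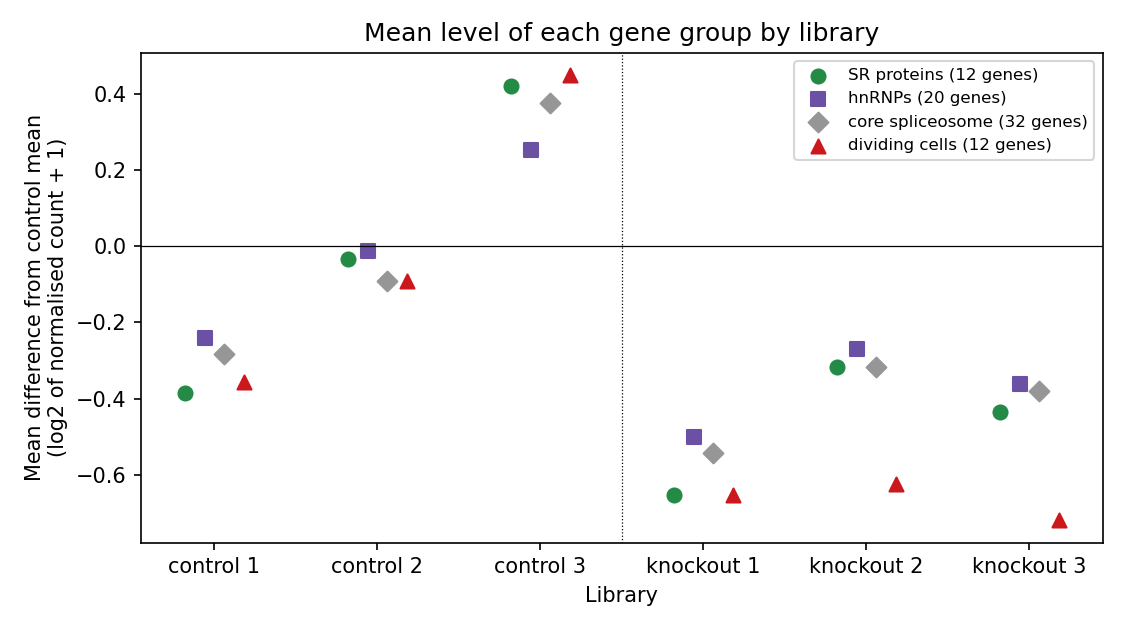
Mean difference of each gene group from its control mean on the log2 scale, by library, for the 12 SR genes, 20 hnRNPs, 32 core spliceosome subunits and 12 genes of dividing cells. All 4 groups are highest in control library 3, and the SR genes stand at 0.42 there and at -0.65 in knockout library 1.

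Lists of related genes were read in the same libraries for comparison. The 12 genes of dividing cells had a median log2 fold change of -0.66 (-0.46 without control library 3). All 12 were negative in both fits, and Ccnb1 stood at -0.90 and Aurkb at -0.43 with all libraries. In 11 of the 12 genes all knockout libraries lay below all controls, against 14.4% of all genes. Their mean deviation was -0.36, -0.09 and 0.45 in controls and -0.65, -0.62 and -0.72 in knockouts, and the part of cell division in the differences of the 32 genes was not tested. The 32 core spliceosome subunits had a median of -0.42 with 30 negative, from Sf3a2 at -0.84 to Snrpg at 0.11. Without control library 3 their median was -0.23, with 27 negative and Sf3a2 at -0.52. Of the 22 other hnRNP-type RNA-binding proteins 22 were negative, with a median of -0.28 (-0.18 without control library 3), and Grsf1 had the highest value at -0.06. Of the 23 SR-related proteins 19 were negative, with a median of -0.33 (-0.18 without control library 3), from Bclaf1 at -0.83 to Luc7l at 0.08. None of the genes on these lists was called by limma, edgeR or DESeq2 with all 6 libraries. Without control library 3 DESeq2 called as lower 7 of the 12 genes of dividing cells and 5 of the 32 core spliceosome subunits. It also called 4 of the 22 other hnRNP-type proteins and 0 of the 23 SR-related proteins as lower. The share was 2.87% over the genes to which it gave an adjusted p.

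Enzymes and carriers that act on both classes are given next. The 12 SR kinases, phosphatases and import factors had a median log2 fold change of -0.01, with 6 negative, and Srpk2, a kinase that phosphorylates SR proteins, stood at 0.40 (0.16 without control library 3) and Ppp1cc, a phosphatase subunit, at -0.40. The 6 genes for hnRNP arginine methylation and nuclear import were all negative, with a median of -0.56 (-0.32 without control library 3), from Wdr77, a partner of the arginine methyltransferase Prmt5, at -0.91 (-0.40 without that library) to Tnpo2, a transportin, at -0.08. Wdr77 had 18783 normalised counts in control library 3 and 4371 to 7882 in the other 5 libraries. Of the 10 factors of nonsense-mediated decay 9 were negative, with a median of -0.19 (-0.12 without control library 3), from Smg5 at -0.66 (-0.37 without it) to Smg9 at 0.10.

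Gene-level counts do not separate productive transcripts from those with a poison exon. In the GENCODE vM21 annotation of GRCm38, 11 of the 12 SR genes had at least 1 transcript annotated as a target of nonsense-mediated decay, all but Srsf10, and 10 of the 20 hnRNP genes did. Srsf11 had 3 such transcripts and 11 with a retained intron, and Hnrnpk had 3 and 13. Which of these transcripts the reads came from was not analysed here.

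Levels can be compared between genes only per length, and the order of genes depends on the transcript chosen as the length. The longest coding transcript held 1728 of 6584 exonic bases for Hnrnpa2b1 and 21452 of 22199 for Hnrnpr. Per kilobase of the longest coding transcript, the control mean was highest for Hnrnpa2b1 at 61776 ± 14498 (SD, n = 3) and Hnrnpab at 29399 ± 11140 (SD, n = 3) among the hnRNPs, and for Srsf2 at 13426 ± 6945 (SD, n = 3) in the SR class. Hnrnph3 was lowest at 346 ± 39.1 (SD, n = 3), and Tra2b was lowest in the SR class at 1922 ± 596 (SD, n = 3). In the knockouts Srsf9, at 9313 ± 808 (SD, n = 3), stood above Srsf2, at 6388 ± 1189 (SD, n = 3). In the controls Srsf9, at 10361 ± 595 (SD, n = 3), and Srsf2 differed by less than the spread of Srsf2.

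Several genes share sequence with others, and how reads matching more than 1 place were counted is unknown from the sources used here. The share of 50-base words of the longest coding transcript that also occur in another gene was 67.3% for Hnrnpf, 65.4% for Srsf4, 46.4% for Hnrnpa1, whose words occur in 19 pseudogenes, 37.8% for Hnrnpk, 35.2% for Srsf2 and 31.5% for Srsf3. It was 29.0% for Hnrnpab, 28.8% for Hnrnpm, 28.2% for Hnrnpa3, with 42 pseudogenes, and 27.8% for Srsf5. It was 0% for Srsf6, Srsf9, Srsf11, Tra2a, Hnrnpa0, Hnrnpll and Hnrnpu. The values of the 10 genes at 27.8% or more are to that extent uncertain. Srsf2, Srsf4, Hnrnpf and Hnrnpab also overlap annotated genes on the other strand, over 25.3% to 43.0% of their exonic bases. Hnrnpm overlaps March2 on its own strand over 14.7%. Smaller overlaps exist for other members such as Hnrnpu at 6.93% and Hnrnpk at 5.10%.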

How the data were processed

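RNA was sequenced from 6 libraries of mouse embryonic fibroblasts, 3 with negative control and 3 with Zmat3 guides, grouped by their labels. Per gene, the deposited signal is a read count that the authors divided by a size factor. STAR, DESeq2 and mm10 are named per the submitters' processing notes. The sources used here do not give the counting program, annotation, strand setting or versions. Whole reads were recovered by dividing out the value of 1 read: 100% of values came out whole within 0.001. Of 27179 rows, 93.0% matched RefSeq names; 6263 had no name, 4376 of which received one, and 26 symbols turned into dates were restored. The number of further sample columns was 0.

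Genes were kept by filterByExpr (minimum 10), leaving 14777. The main test was limma 3.58.1 (trend, robust, two-sided) on log2(value + 1), so fold changes of low genes are understated, with Benjamini-Hochberg adjustment over all genes at 0.05. edgeR 4.0.16 quasi-likelihood, on the kept genes, and DESeq2 1.42.0, without the filterByExpr step, were run on the recovered reads in R 4.3.3. edgeR called 0 genes and DESeq2 129. The statistics were tested on simulated data. Alternatives changed the pseudocount, filter, scaling, test and libraries. Genes given in full were, per class, the 3 lowest and 2 highest fold changes, the most and fewest reads, any called gene and any whose sign turned without 1 library. Members and gene lists were chosen with earlier results of these data known. Replicates differed by more than sampling noise in every pair. Promoter sequences and gene models were taken from RefSeq (GRCm38.p6) and GENCODE vM21.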

Additional observations from a re-analysis of the deposited data

How the results depend on the processing

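Every alternative kept the medians of both classes negative. limma called 0 genes, DESeq2 129, and, both chosen after seeing the data, DESeq2 without control library 3 called 711 (1 of the 32, Hnrnpa0) and edgeR without it 5. Leaving out 1 library in turn gave 0 to 5 limma calls and 0 of the 32 called. The medians ran from -0.75 to -0.28 (SR) and from -0.45 to -0.25 (hnRNP), and 15 to 28 genes were lower without overlap. The 28 came without control library 1, whose absence also moved the SR median to -0.75. It also put 4113 of all genes at an unadjusted limma p under 0.05, against 1948 with all 6 libraries. The share of all genes lower without overlap was computed only with all 6 libraries and without control library 3. The other counts without overlap therefore cannot be read as particular to the 32 genes. They have no value under other tests, pseudocounts, filters or the block. Library-total scaling moved the median of all genes from 0.01 to 0.09 and the class medians to -0.44 and -0.28, with 30 of the 32 negative and 12 lower without overlap. Under it the log2 fold change turned to 0.049 for Srsf5 and 0.050 for Hnrnph3. Without control library 3 it turned to 0.063 (limma), 0.058 (DESeq2) and 0.067 (edgeR) for Srsf5, to 0.056, 0.045 and 0.054 for Hnrnpc, and to 0.0063 (limma) and 0.0061 (edgeR) for Hnrnpdl. Leaving out 1 library in turn gave log2 fold changes of -0.098 to 0.063 for Srsf5, -0.27 to 0.056 for Hnrnpc, -0.30 to 0.0063 for Hnrnpdl and -0.12 to 0.042 for Hnrnph3. The positive ones came without control library 3 for Srsf5, Hnrnpc and Hnrnpdl, without control library 2 for Hnrnph3, and without knockout library 3 for Srsf5 (0.0082) and Hnrnph3 (0.018). The cause was not tested. Same-numbered libraries correlated in their deviations at 0.264, 0.198 and -0.0172, and control library 2 with knockout library 3 at 0.215. Whether the shared numbers pair the libraries cannot be told from these values and was not tested. With the replicate number as a block limma called 0 genes and 0 of the 32, with medians of -0.52 and -0.36 and 2490 genes at an unadjusted p under 0.05. The fewest reads of any of the 32 genes in a library were 567, for Hnrnph3.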
